A study of Mus musculus with 15 samples.

Results

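The genes described here are 43 members of the bone morphogenetic protein (BMP) and transforming growth factor beta (TGF-beta) pathways, named by gene symbol from a list of ligands, receptors, SMAD proteins, antagonists and response genes. All 43 were found among the 36528 genes of the deposited tables, and 41 passed the filter on low counts. They were measured by polyA RNA sequencing of tumour cells sorted from the skin of mice with basal cell carcinoma, in 4 libraries labelled control, 8 libraries after 6 days of vismodegib and 3 libraries after 14 days of vismodegib. Vismodegib inhibits SMO, the transducer of Hedgehog signalling. Mice of all 3 groups carried K14Cre-ER, an inducible Cre recombinase driven by a basal keratinocyte promoter, the conditional alleles Ptch1fl/fl (of the Hedgehog receptor) and p53fl/fl, and Lgr5GFP, a GFP reporter. The series' design text calls the control mice untreated, and the labels give neither the sort gate nor the age of the mice. The labels do not tie libraries to animals, so every p-value here measures only the spread between these libraries, which may be technical.

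BMPs, TGF-betas and activins are secreted dimers that bind paired type I and type II receptor kinases, which phosphorylate receptor SMADs: SMAD1, SMAD5 and SMAD9 downstream of BMPs, SMAD2 and SMAD3 downstream of TGF-betas and activins. The phosphorylated SMADs join SMAD4 in the nucleus, where BMP signalling induces the ID genes and both branches induce their own inhibitors, among them SMAD6, SMAD7 and SKIL. Secreted antagonists such as noggin, chordin, gremlin and follistatin trap the ligands outside the cell. In mouse skin BMP signalling is known for holding hair follicle stem cells at rest, and noggin for releasing them into growth.

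Total counts ran from 27336935 to 256569828 per library, and 3 counts corresponded to at most 0.11 CPM (counts scaled to library size). By their sample identifiers the libraries form 3 blocks of numbers, called ranges here, and no label describes them as batches. Range A held 5 libraries at 6 days and 3 control libraries, with 27336935 to 38657170 counts. Range B held 3 libraries at 6 days and control replicate 4, with 93183564 to 256569828 counts, and range C held just the 3 libraries at 14 days, with 119045864 to 162951666 counts. Range C and 14 days therefore cannot be told apart. The Hedgehog target Gli1 had 239, 490, 423 and 1801 CPM in control replicates 1 to 4, 77.5, 246 and 1292 CPM as lowest, median and highest at 6 days, and 61.6, 116 and 146 CPM at 14 days. Ptch1, a Hedgehog target and also the floxed gene, whose deletion a count over the whole gene does not check, had 385, 934, 679 and 2280 CPM in control replicates, 46, 156 and 1004 CPM as lowest, median and highest at 6 days, and 53.1, 79.4 and 129 CPM at 14 days. Both genes were lower in every 14-day library than in every control library and overlapped between 6 days and control. At 14 days against control Ptch1 was called lower (adjusted p = 0.0454, edgeR) and Gli1 was not (adjusted p = 0.0848, edgeR). Neither was called at 6 days (adjusted p = 0.159 for Ptch1 and 0.747 for Gli1, edgeR). Another Hedgehog target, Hhip, was called lower than in control at 6 days (log2 fold change -2.47, adjusted p = 0.0362, edgeR). It was also called lower at 14 days against control (-2.80, adjusted p = 0.0394, edgeR). Every treated library lay below every control library for Hhip. The 7 epithelial markers were present in every library, and 1 of them, Cdh1, was called higher at 14 days against control (log2 fold change 1.18, adjusted p = 0.0241, edgeR) and against 6 days (1.16, adjusted p = 0.0227, edgeR). At 14 days against control Krt5, Krt14 and Trp63 had positive and Krt17, Epcam and Dsp negative log2 fold changes, none of them called. The 8 myeloid markers summed to 4.04 to 14.3 CPM in control libraries, 1.69 to 9.64 CPM at 6 days, and 33.8, 24.3 and 36.9 CPM in 14-day replicates 1 to 3. At 14 days 3 of these 8 were called higher than in control and 4 higher than at 6 days, and the macrophage marker Adgre1 was at 0 in every 6-day library. Another of the 8, Cd68, had 14-day log2 fold changes of -0.18 against control and -0.02 against 6 days. Fibroblast markers summed to 8.62 to 21.4 CPM in control libraries, 4.06 to 19.7 CPM at 6 days and 5.32 to 8.84 CPM at 14 days. Mural markers summed to 6.23 to 20.6 CPM in control libraries, 0.948 to 8.35 CPM at 6 days and 1.17 to 5.15 CPM at 14 days. Endothelial markers summed to 3.52 to 5.75 CPM in control libraries, 0.656 to 5.05 CPM at 6 days and 2.31 to 2.90 CPM at 14 days. For both, every 14-day library lay below every control library, and none of the 7 mural and endothelial markers that were tested was called. Melanocyte markers had the highest sums after the epithelial ones, at 34.25 to 667 CPM in control libraries, 50.65 to 835 CPM at 6 days and 46.7 to 356 CPM at 14 days. Melanocyte and lymphoid sums overlapped between all groups.

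No tested member was called at 6 days against control, and few were at 14 days. A gene counts as called where edgeR's quasi-likelihood test, adjusted by Benjamini-Hochberg over 18751 genes, gave p under 0.05. For 6 days against control 0 of 41 members were called, where 1.26% of all genes tested were (0.485% higher and 0.773% lower). Of these 41 members, 9 had an unadjusted p under 0.05, beside 12.7% of all genes. DESeq2 called 0 of them, beside 4.51% of all genes, and limma-voom 2, beside 4.41%. For 14 days against control 1 member was called higher, the co-receptor Tgfbr3, and 1 lower, the receptor Acvr1, beside 6.6% of all genes (3.25% higher and 3.35% lower). For 14 against 6 days the ligands Bmp3 and Bmp4 and the matrix genes Ltbp1 and Tgfbi were called higher and the antagonist Nog lower, 5 of 41 members beside 3.89% of all genes (2.14% higher and 1.75% lower). In the edgeR fit the members' share of calls was below that of all genes in both comparisons with control. It was above that of all genes between the time points. These shares rest on few calls and changed with the method. At 14 days against control DESeq2 called 11 of 41 members, beside 2752 of 18751 genes, and limma-voom 9, beside 4205. With an adjusted p under 0.1, edgeR gave 0 of 41 members at 6 days against control, beside 2.52% of all genes, 7 at 14 days against control, beside 11.8%, and 8 for 14 against 6 days, beside 9.32%. The comparisons with control use the same 4 control libraries, and both comparisons of 14 days use the same 3 treated libraries.

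The members did not shift together in 1 direction. The median given here is signed, so rises and falls cancel in it. The median log2 fold change of the tested members was -0.03 at 6 days against control, where that of all genes was 0.03, and -0.10 at 14 days against control, where that of all genes was -0.02. Between 14 and 6 days it was -0.12, beside -0.06 over all genes. At 6 days against control 37 of 41 members lay within a 2-fold change, where 86.5% of all genes did, and at 14 days 26 of 41 did, beside 73.1% of all genes. Between 14 and 6 days 29 of 41 lay within a 2-fold change, beside 77.6% of all genes. In both 14-day comparisons the share within a 2-fold change was thus lower for members than for all genes. In edgeR 15 of 41 members had an unadjusted p under 0.05 at 14 days against control, beside 4370 of 18751 genes. For 14 against 6 days 13 did, beside 4333 genes. The difference between these shares was not tested. The libraries at 14 days and the control libraries did not overlap for 14 members, 7 higher and 7 lower, and 23.4% of all genes were separated in the same way (11.7% higher and 11.7% lower). The libraries at 6 days and the control libraries overlapped for every tested member, where 2.69% of all genes were separated (1.22% higher and 1.47% lower). Between 14 and 6 days 4 members were separated higher and 3 lower, beside 11.7% of all genes (5.42% higher and 6.28% lower). In bulk libraries such as these, fewer cells of a type and less RNA per cell cannot be told apart.

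**Figure D1:**
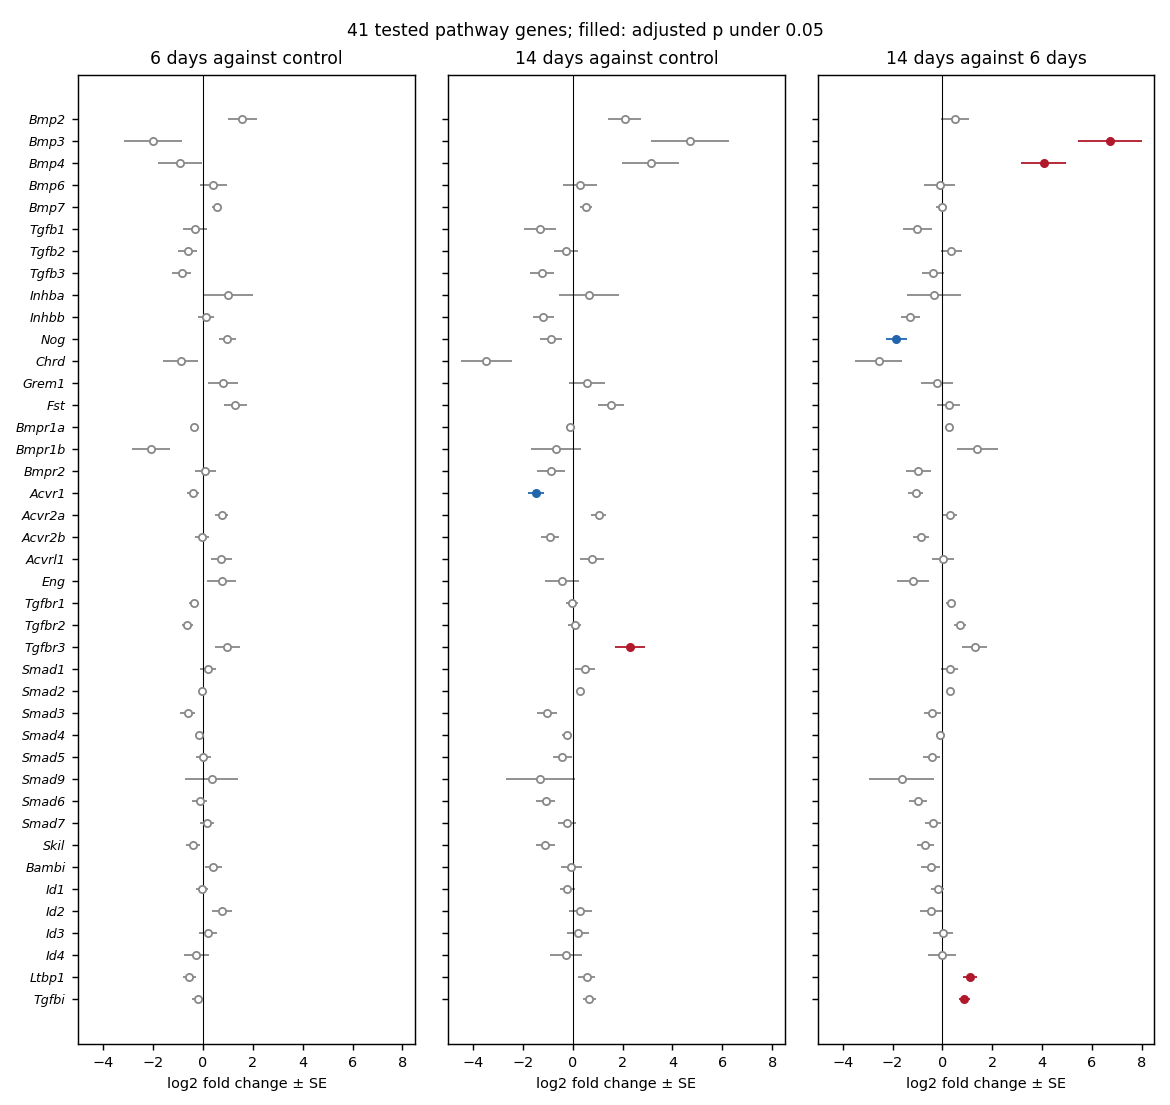
Log2 fold changes (points) with standard errors (bars) of the 41 tested pathway genes at 6 days against control, 14 days against control and 14 days against 6 days; filled points passed the adjusted threshold, red for higher and blue for lower. No point is filled in the first panel, 2 are in the second and 5 in the third, and the ID genes at the lower end lie close to 0 in all 3 panels.

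The promoters of the called genes Bmp4, Tgfbi, Acvr1 and Ski are shown because SMADs act there. Each has an entry in the RefSeq promoter table of GRCm38.p6 and a window outside the gene. Windows of other called genes are not shown. Each is the 250 bases before the annotated start, 5′ to 3′ on the gene's strand, with matches to 4 motifs on either strand in capitals. The motifs were the SMAD palindrome GTCTAGAC, the TGF-beta-type SMAD element CAGAC, which reads GTCTG on the other strand and shares letters with the palindrome without lying inside it, the BMP-type GC element GGCGCC and the GLI site GACCACCCA.
Bmp4, higher at 14 than at 6 days, chr14:46390670-46390919, minus strand: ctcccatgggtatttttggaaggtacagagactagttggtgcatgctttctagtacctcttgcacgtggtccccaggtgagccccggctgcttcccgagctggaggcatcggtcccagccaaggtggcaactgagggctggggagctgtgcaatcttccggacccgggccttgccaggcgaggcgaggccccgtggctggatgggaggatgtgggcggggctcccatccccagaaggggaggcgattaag
Tgfbi, higher at 14 than at 6 days, chr13:56609336-56609585, plus strand: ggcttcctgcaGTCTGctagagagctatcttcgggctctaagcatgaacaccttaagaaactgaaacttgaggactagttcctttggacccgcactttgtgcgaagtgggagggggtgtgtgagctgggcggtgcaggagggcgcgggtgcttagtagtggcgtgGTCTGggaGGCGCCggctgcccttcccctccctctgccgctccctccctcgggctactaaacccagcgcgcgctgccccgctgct
Acvr1, lower at 14 days than in control, chr2:58566829-58567078, minus strand: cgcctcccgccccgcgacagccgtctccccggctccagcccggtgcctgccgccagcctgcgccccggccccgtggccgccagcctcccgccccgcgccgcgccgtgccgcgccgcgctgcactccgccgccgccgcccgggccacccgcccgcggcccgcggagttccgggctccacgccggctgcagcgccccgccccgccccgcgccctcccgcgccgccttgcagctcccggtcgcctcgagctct
Ski, a SMAD co-repressor lower at 14 days than in control and at 6 days, chr4:155222536-155222785, minus strand: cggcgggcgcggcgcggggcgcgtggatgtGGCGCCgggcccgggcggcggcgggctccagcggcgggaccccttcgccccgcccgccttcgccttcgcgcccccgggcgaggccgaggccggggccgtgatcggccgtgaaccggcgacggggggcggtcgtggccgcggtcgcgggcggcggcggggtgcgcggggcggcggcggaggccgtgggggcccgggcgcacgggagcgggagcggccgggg

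The Tgfbi window held 2 matches to CAGAC and, between the second of them and the start, 1 GC element, the Ski window held 1 GC element, and the Bmp4 and Acvr1 windows held none of the 4 motifs. GC content was 63.2% for Bmp4 and 62.4% for Tgfbi, and 85.6% for Acvr1 and 87.6% for Ski, where the median of 32851 promoter windows was 52.4%. Across the 29 members with an entry, which have 35 windows, 10 windows (28.6%) held GGCGCC, beside 9.59% of all windows, and 17 (48.6%) held CAGAC, beside 42.2% of all. The called member Ltbp1, not shown above, was among those with CAGAC. The median GC content of the member windows was 63.6%. The palindrome and the GLI site occurred in none of the 35, beside 0.167% and 0.225% of all windows. A match describes letters and is not evidence of binding.

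Levels per gene length, from the deposited RPKM values (reads scaled by gene length and library size), set the members in order. Follistatin (Fst), which traps activins, averaged 92.6 ± 44.5 RPKM in control libraries (SD, n = 4), 222 ± 104 RPKM at 6 days (n = 8) and 263 ± 95.3 RPKM at 14 days (n = 3). It was the member with the highest mean RPKM at both times. In control libraries Id4 (102 RPKM) and Tgfbi (98.9 RPKM) had means above it, within the spread of Fst between libraries. Among the ligands Tgfb3 at 64.8 RPKM, Inhbb at 51.1 RPKM and Bmp7 at 38.5 RPKM led in control libraries. Bmp2, Bmp3 and Bmp4 averaged under 1 RPKM there, and Bmp5 and Bmp8a were at or near 0 and were not tested. The SMAD with the highest mean was Smad1, at 41.5 RPKM in control libraries, and the lowest was Smad9.

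**Figure D2:**
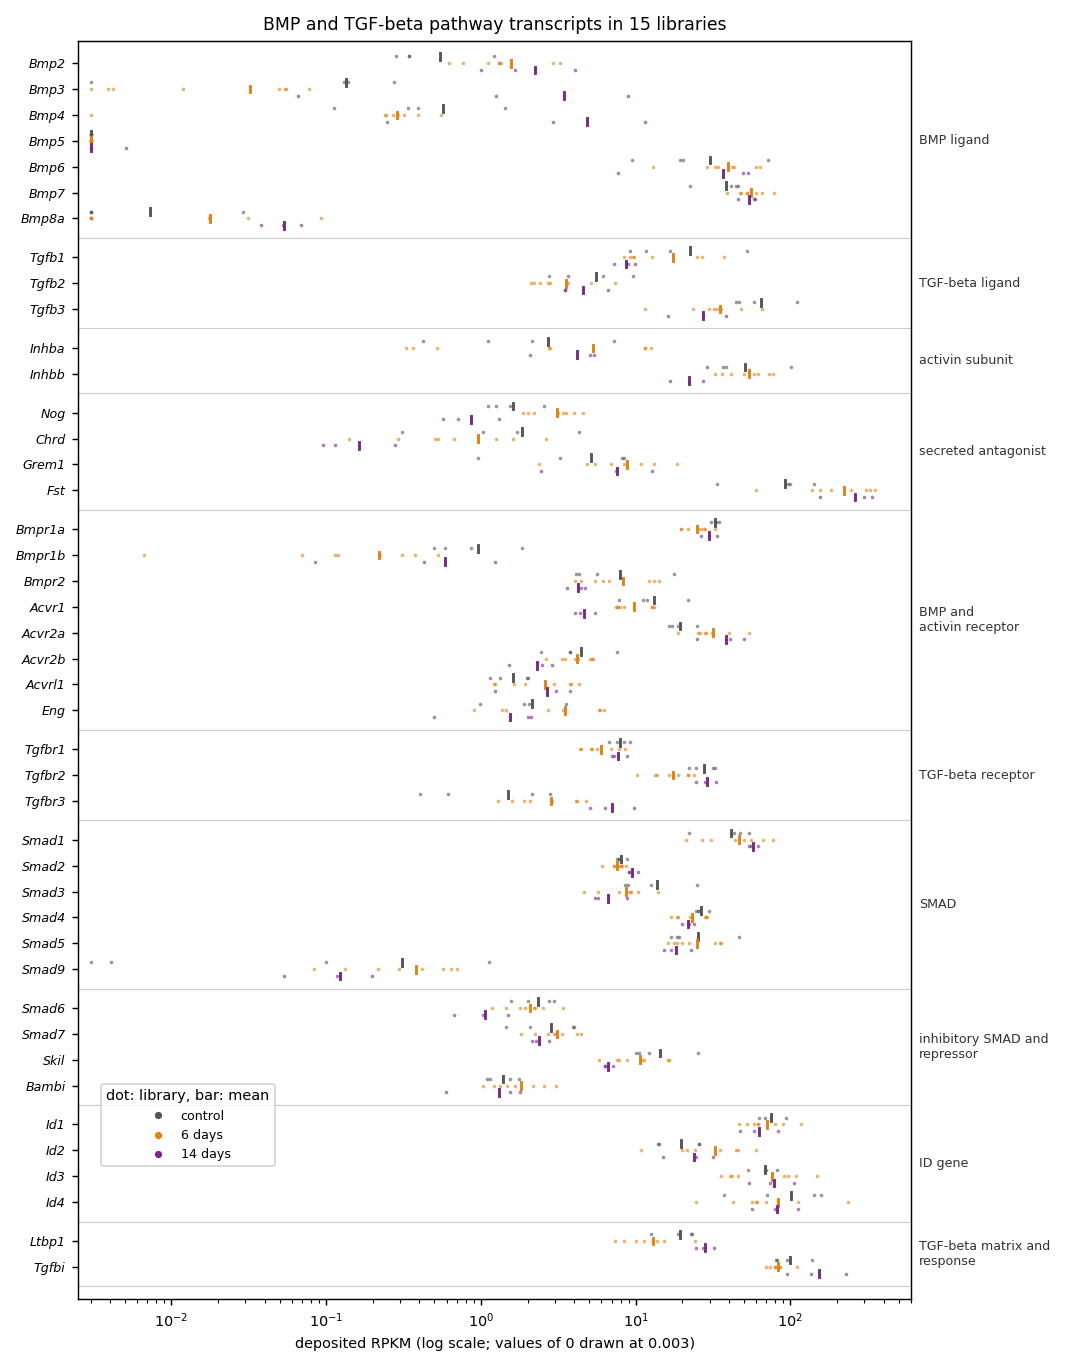
Deposited RPKM (log axis, values of 0 drawn at 0.003) of the 43 pathway genes in each of the 15 libraries (dots) with group means (bars), grouped by role. Fst, Tgfbi, Id1, Id3 and Id4 lie highest, and Bmp3 and Bmp4 spread over the widest range at 14 days.

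Among the BMP ligands the 2 that were called, Bmp3 and Bmp4, were nearly silent outside 14-day replicates 1 and 3. Bmp3, a ligand that antagonises other BMPs (GRCm38, chr5:98854415-98884053), had 2.01, 0.98 and 1.03 CPM and no read in control replicates 1 to 4, a lowest, median and highest of 0, 0.238 and 0.596 CPM at 6 days, and 67.6, 0.504 and 9.45 CPM in 14-day replicates 1 to 3. The high values were those of 14-day replicates 1 and 3, and replicate 2 lay within the range of the 6-day libraries. Against 6 days the log2 fold change at 14 days was 6.72 ± 1.29 (SE, adjusted p = 0.0159, edgeR). The call was lost without 14-day replicate 1 or replicate 3, with an adjusted p of up to 0.248.

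Bmp4, a BMP of the dermis and hair follicle (chr14:46383525-46390669), followed the same libraries. It had 3.98, 0.951, 1.09 and 0.313 CPM in control replicates 1 to 4, a lowest, median and highest of 0, 0.804 and 1.56 CPM at 6 days, and 32.5, 0.706 and 8.33 CPM at 14 days. Replicate 2 at 14 days again lay inside the range of both other groups. Over 6 days, the 14-day log2 fold change was 4.06 ± 0.91 (adjusted p = 0.0293, edgeR), and the call was lost without 14-day replicate 1 or 3 or 6-day replicate 2 or 5, with an adjusted p of up to 0.41. Against control, Bmp4 was not called at 14 days (3.13 ± 1.14, adjusted p = 0.115). Summed myeloid markers and Cdh1 were also higher in every 14-day library than in every other library, and their part in the Bmp3 and Bmp4 results was not tested.

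Bmp2, a BMP of the hair follicle, had 5.01, 1.46, 1.19 and 1.42 CPM in control replicates 1 to 4, 2.72, 5.66 and 14 CPM as lowest, median and highest at 6 days, and 17.4, 4.31 and 7.13 CPM at 14 days. Control replicate 1 overlapped both treated groups, and the other control libraries lay below every treated library. Its log2 fold change was 1.58 ± 0.57 at 6 days (adjusted p = 0.226, edgeR) and 2.08 ± 0.67 at 14 days (adjusted p = 0.0736, edgeR), both against control. The 6-day value was 1.65 in range A alone and 1.72 in range B alone. With range B as a covariate the 14-day difference from control reached an adjusted p of 0.0494.

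Bmp7, the most abundant BMP ligand per length in control libraries, had 195, 182, 97.7 and 190 CPM there, 175, 234 and 344 CPM as lowest, median and highest at 6 days, and 202, 258 and 260 CPM at 14 days. All 14-day libraries lay above all control libraries by a small margin, and the difference was not called (log2 fold change 0.53 ± 0.25, adjusted p = 0.22, edgeR). Bmp6 ranged from 26.7 to 206 CPM in control libraries, from 37.5 to 183 CPM at 6 days and from 22.2 to 153 CPM at 14 days, and these ranges overlapped. Its log2 fold change at 6 days against control was 0.42 (adjusted p = 0.888, edgeR), with 0.21 in range A alone and 1.92 in range B alone. The range B value rests on control replicate 4, the lowest control at 26.7 CPM.

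None of the 3 TGF-beta ligands was called. Tgfb3 had 182, 445, 234 and 175 CPM in control replicates 1 to 4, 47, 133 and 274 CPM as lowest, median and highest at 6 days, and 65.7, 111 and 155 CPM at 14 days. Every 14-day library lay below every control library, with a log2 fold change of -1.23 ± 0.49 (adjusted p = 0.146, edgeR). At 6 days against control it was -0.85 (adjusted p = 0.34, edgeR), with -1.25 in range A alone and 0.04 in range B alone.

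Tgfb1 had 40.4, 29, 22.6 and 128 CPM in control replicates 1 to 4, 21.5, 28.4 and 95.6 CPM as lowest, median and highest at 6 days, and 24.9, 18.3 and 22.6 CPM at 14 days. The high control library was the one of range B, and all 4 libraries of range B lay above all 8 of range A for this gene. Tgfb2 had 73.2, 47.9, 28.1 and 20.9 CPM in control replicates, 16.6, 21.8 and 58 CPM as lowest, median and highest at 6 days, and 27.2, 27.7 and 51.8 CPM at 14 days, and the groups overlapped.

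The activin subunits behaved differently from each other in spread. Inhbb, which encodes the beta B chain, had 180, 196, 144 and 501 CPM in control replicates 1 to 4, 166, 279 and 394 CPM as lowest, median and highest at 6 days, and 84.8, 114 and 139 CPM at 14 days. The 14-day libraries were the lowest of all 15. The log2 fold change at 14 days was -1.18 ± 0.41 against control (adjusted p = 0.102) and -1.30 ± 0.38 against 6 days (adjusted p = 0.0704, edgeR in both), and both were called lower with range B as a covariate. Inhba, the beta A chain, had 21.1, 3.36, 6.28 and 1.23 CPM in control replicates, 0.991, 8.43 and 37.4 CPM as lowest, median and highest at 6 days, and 6.22, 16.4 and 15.4 CPM at 14 days, with no separation of the groups.

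Of the 4 secreted antagonists, noggin fell between 6 and 14 days. Nog (chr11:89300638-89302559) had 3.47, 2.88, 2.5 and 5.72 CPM in control replicates 1 to 4, 4.26, 7.59 and 10.7 CPM as lowest, median and highest at 6 days, and 1.3, 3.05 and 1.64 CPM at 14 days. Every 14-day library lay below every 6-day library, and the 14-day and control ranges overlapped. Compared with 6 days, the log2 fold change was -1.84 ± 0.41 (adjusted p = 0.0287, edgeR), and the call was lost without 14-day replicate 1 or 3 or 6-day replicate 5, with an adjusted p of up to 0.247. At 6 days against control it was 0.98 ± 0.35 (adjusted p = 0.219, edgeR), with 1.16 within range A and 0.48 within range B.

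Chordin (Chrd), which like noggin binds BMPs directly, had 5.91, 10.1, 1.81 and 24.9 CPM in control replicates 1 to 4, 0.833, 3.59 and 15.9 CPM as lowest, median and highest at 6 days, and 0.568, 1.68 and 0.673 CPM at 14 days. All 14-day libraries lay below all control libraries, with control replicate 3 close to them. At 14 days against control its log2 fold change was -3.46 ± 1.03 (adjusted p = 0.0581, edgeR), and Chrd was called lower with range B as a covariate.

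Follistatin had 476, 333, 340 and 113 CPM in control replicates 1 to 4, 213, 749 and 1218 CPM as lowest, median and highest at 6 days, and 535, 1175 and 1037 CPM at 14 days. Every 14-day library lay above every control library, and the lowest 6-day library overlapped the controls. At 6 days against control the log2 fold change was 1.29 ± 0.45 (adjusted p = 0.205, edgeR), with 1.36 within range A and 1.87 within range B, where the control library had the lowest level of all 15. It was 1.54 ± 0.53 at 14 days (adjusted p = 0.0952, edgeR), and both differences were called higher with range B as a covariate. Gremlin 1 (Grem1) had 1.98, 17.2, 17.6 and 6.78 CPM in control replicates, 5.08, 16.3 and 39.4 CPM as lowest, median and highest at 6 days, and 5.23, 16.2 and 27.1 CPM at 14 days, and the groups overlapped.

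**Figure D3:**
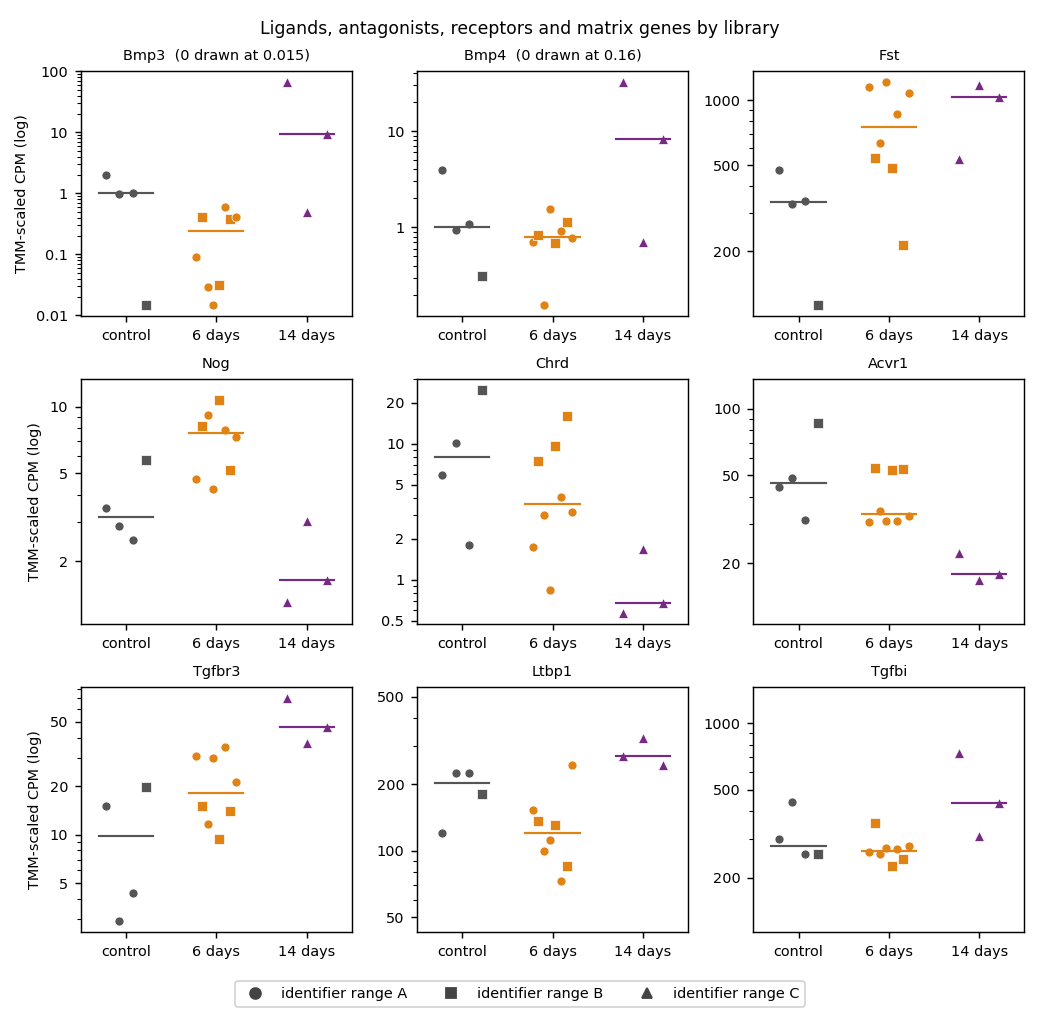
TMM-scaled CPM (log axes) of 9 members in each library, by group, with identifier range as the marker shape and group medians as lines. Bmp3 and Bmp4 are high in 2 of the 3 libraries at 14 days, Acvr1 lies lower and Tgfbr3 higher in all 14-day libraries than in any other library, and Nog at 14 days lies below all 6-day libraries.

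Among the 8 BMP and activin receptors, Acvr1, the BMP type I receptor ALK2 (chr2:58446438-58566828), fell at 14 days. It had 44.2, 48.5, 31.5 and 86.4 CPM in control replicates 1 to 4, 30.7, 33.6 and 53.9 CPM as lowest, median and highest at 6 days, and 22.2, 16.8 and 17.9 CPM at 14 days. The 3 libraries at 14 days were the lowest of all 15, and the 4 of range B were the highest. The log2 fold change at 14 days against control was -1.47 ± 0.33 (adjusted p = 0.0181, edgeR). The call was lost without any 1 of the 14-day libraries, with an adjusted p of up to 0.0783, and when the 6-day libraries were left out of the model. Against 6 days it was -1.08 ± 0.30 (adjusted p = 0.0587, edgeR).

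Acvr2a, a type II receptor of activins and BMPs, had 124, 169, 115 and 109 CPM in control replicates 1 to 4, 132, 195 and 372 CPM as lowest, median and highest at 6 days, and 170, 344 and 281 CPM at 14 days. The 14-day and control libraries did not overlap, though by about 1 CPM at their nearest, and the difference was not called (log2 fold change 1.04 ± 0.31, adjusted p = 0.0607, edgeR). Bmpr1b, a BMP type I receptor, had 4.72, 7.07, 4.06 and 14.9 CPM in control replicates, 0.0553, 1.42 and 4.45 CPM as lowest, median and highest at 6 days, and 10.2, 0.706 and 3.54 CPM at 14 days. All of its 6-day libraries lay below 3 of the 4 control libraries, with a log2 fold change of -2.08 ± 0.76 (adjusted p = 0.23, edgeR) (-1.71 in range A alone, -2.81 in range B alone). The main BMP type I receptor of skin, Bmpr1a, stayed between 139 and 236 CPM in all 15 libraries, with log2 fold changes from -0.35 to 0.24 and no call. Bmpr2, Acvr2b, Acvrl1 and Eng had log2 fold changes from -1.18 to 0.77 in the 3 comparisons, and none was called.

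Tgfbr3 (chr5:107106567-107289629), betaglycan, a co-receptor that presents TGF-beta2 and binds inhibin, rose at 14 days. It had 15.1, 2.91, 4.37 and 19.8 CPM in control replicates 1 to 4, 9.43, 18 and 35.1 CPM as lowest, median and highest at 6 days, and 70.5, 37.2 and 46.3 CPM at 14 days. All 14-day libraries lay above all others. The log2 fold change against control was 2.28 ± 0.60 (adjusted p = 0.036, edgeR), and the call was lost without control replicate 2 or 3 or any 1 of the 14-day libraries, with an adjusted p of up to 0.143, and when the 6-day libraries were left out of the model. At 6 days against control it was 0.98 ± 0.50 (adjusted p = 0.451, edgeR), with 1.76 within range A and -0.63 within range B.

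The kinase receptors of TGF-beta were not called. Tgfbr2, the type II receptor, had 137, 185, 125 and 176 CPM in control replicates 1 to 4, 59.1, 102 and 140 CPM as lowest, median and highest at 6 days, and 190, 143 and 162 CPM at 14 days. All 14-day libraries lay above all 6-day libraries and overlapped the controls. The log2 fold change was 0.71 ± 0.23 for 14 over 6 days (adjusted p = 0.088) and -0.62 ± 0.21 for 6 days over control (adjusted p = 0.184, edgeR in both), and both were called with range B as a covariate. Tgfbr1, the type I receptor, had log2 fold changes from -0.37 to 0.35.

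The 6 SMADs that carry the signal showed no call in any comparison. Smad4, the common partner, ranged from 225 to 266 CPM in control libraries, from 156 to 265 CPM at 6 days and from 184 to 216 CPM at 14 days. Smad2 ranged from 81.7 to 95 CPM in control libraries, from 67.8 to 95.1 CPM at 6 days and from 101 to 115 CPM at 14 days. Its 14-day libraries lay above all others, with log2 fold changes of 0.31 against 6 days and 0.29 against control that were not called. Smad3 had a log2 fold change of -1.02 ± 0.40 at 14 days against control (adjusted p = 0.137, edgeR), and control replicate 4, at 170 CPM, was its highest library. Smad1 and Smad5 stayed within a 2-fold change, and Smad9 did not exceed 7.5 CPM in any library.

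The inhibitors of the pathway inside the cell and at the membrane were also not called. Smad6, which blocks BMP receptor signalling, had 7.43, 10.4, 5.84 and 11.1 CPM in control replicates 1 to 4, 4.56, 7.94 and 13 CPM as lowest, median and highest at 6 days, and 2.55, 4 and 5.69 CPM at 14 days. Its 14-day libraries lay just below all control libraries (log2 fold change -1.09 ± 0.39, adjusted p = 0.107, edgeR). Skil, a TGF-beta-induced SMAD co-repressor, had 99.9, 88.6, 84.2 and 207 CPM in control replicates, 48.6, 83.6 and 141 CPM as lowest, median and highest at 6 days, and 53.9, 60.9 and 54 CPM at 14 days. It too was separated at 14 days from control without being called (log2 fold change -1.09 ± 0.38, adjusted p = 0.101, edgeR).

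Smad7, which blocks both branches, had 20.6, 10.9, 7.62 and 20.3 CPM in control replicates 1 to 4, 9.73, 15.9 and 24 CPM as lowest, median and highest at 6 days, and 12.1, 11.5 and 14.6 CPM at 14 days. Bambi, a receptor without a kinase, had 6.45, 9.33, 6.84 and 10.4 CPM in control replicates, 6.39, 9.43 and 18.8 CPM as lowest, median and highest at 6 days, and 3.6, 10.9 and 9.29 CPM at 14 days. Both genes overlapped between all groups.

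The ID genes, inhibitors of basic helix-loop-helix factors and the usual transcriptional readout of BMP signalling, were expressed in every library and called in no comparison. Id1 had 103, 71.2, 83.6 and 75.9 CPM in control replicates 1 to 4, 53.4, 71.1 and 133 CPM as lowest, median and highest at 6 days, and 53.8, 95.3 and 66 CPM at 14 days. Id3 had 91.5, 78.3, 78.5 and 59.2 CPM in control replicates, 41.5, 79.4 and 168 CPM as lowest, median and highest at 6 days, and 61.9, 122 and 84.7 CPM at 14 days. Neither gene separated any pair of groups.

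Id2 had 37.9, 21.1, 21.1 and 37.9 CPM in control replicates 1 to 4, 16.9, 45 and 92.8 CPM as lowest, median and highest at 6 days, and 22.9, 48.9 and 37.6 CPM at 14 days. Its log2 fold change at 6 days against control, 0.77 ± 0.39 (adjusted p = 0.452, edgeR), was the furthest from 0 among the 4 ID genes in any comparison, with 1.23 in range A alone and -0.39 in range B alone. Id4 had 136, 281, 307 and 72.7 CPM in control replicates, 49.9, 121 and 471 CPM as lowest, median and highest at 6 days, and 112, 159 and 224 CPM at 14 days, and the 4 libraries of range B lay below all 8 of range A. A p that misses the threshold does not show equal levels: the SE of these log2 fold changes ran up to 0.64.

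**Figure D4:**
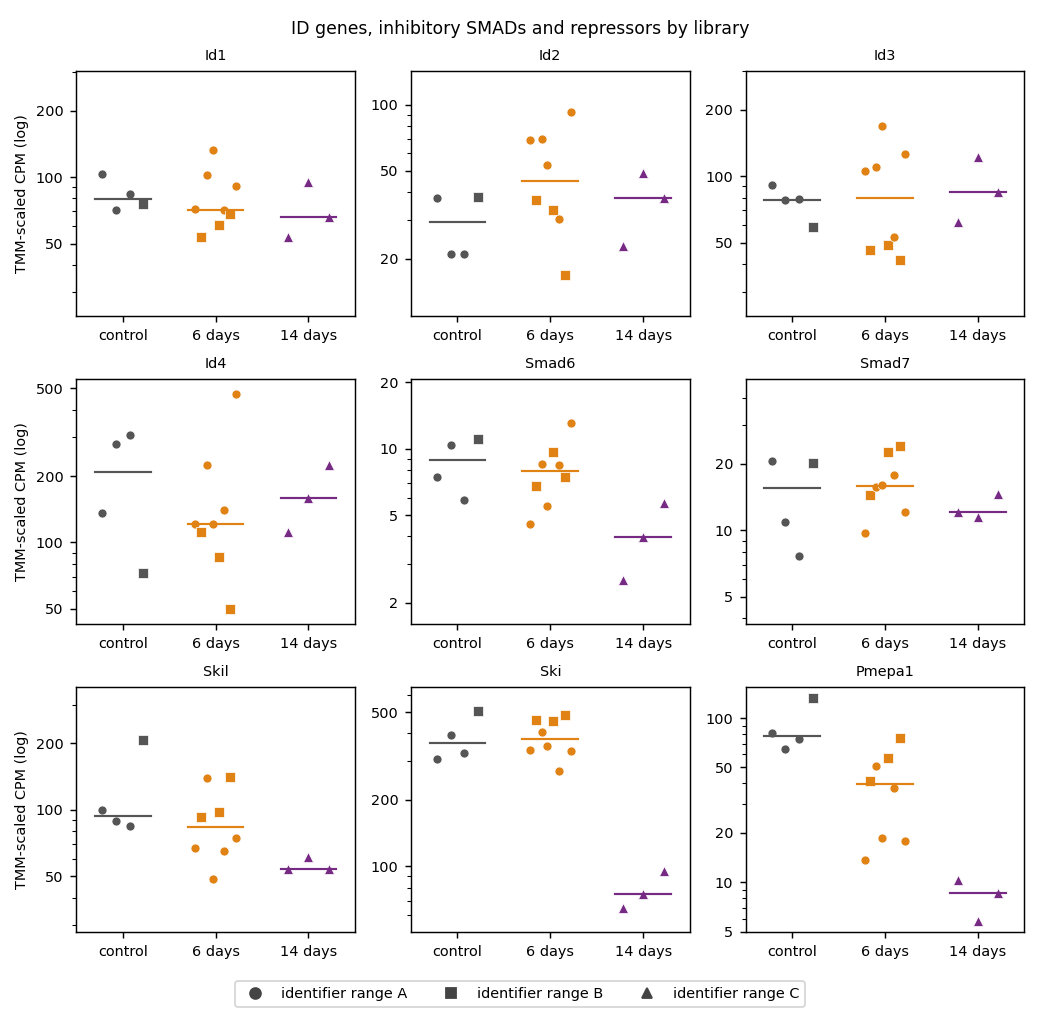
TMM-scaled CPM (log axes) of the 4 ID genes, the inhibitory SMADs and 3 repressors or inhibitors in each library, by group, with identifier range as the marker shape and group medians as lines. The ID genes and Smad7 overlap between all groups, whereas Ski and Pmepa1 at 14 days lie below every other library.

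The 2 matrix and response genes rose between 6 and 14 days. Ltbp1, which stores latent TGF-beta in the matrix (chr17:75005480-75392512), had 121, 226, 226 and 182 CPM in control replicates 1 to 4, 73.2, 121 and 244.2 CPM as lowest, median and highest at 6 days, and 268, 324 and 244.5 CPM at 14 days. The 14-day libraries lay above all others, the lowest of them level with the highest 6-day library. The log2 fold change of 14 over 6 days was 1.11 ± 0.29 (adjusted p = 0.0464, edgeR), and the call held in 3 of the 15 models that left out 1 library, with a highest adjusted p of 0.25.

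Tgfbi, a TGF-beta-induced matrix protein (chr13:56609586-56639359), had 298, 439, 254 and 257 CPM in control replicates 1 to 4, 225, 264 and 354 CPM as lowest, median and highest at 6 days, and 735, 308 and 437 CPM at 14 days. The 14-day range overlapped both others, and replicate 1 was the highest of all 15 libraries. At 14 against 6 days the log2 fold change was 0.87 ± 0.23 (adjusted p = 0.0454, edgeR), and the call held in 4 of the 15 models that left out 1 library, with a highest adjusted p of 0.47. Summed myeloid markers and Cdh1 were higher in the 14-day libraries than in all others. The mural and endothelial sums were lower than in control, with no tested gene of these lists called. Their part in the results for Nog, Tgfbr3, Acvr1, Ltbp1 and Tgfbi, as for the ligands, was not tested.

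Some members separated identifier ranges A and B, a share no larger than that over all genes. All 4 libraries of range B lay above all 8 of range A for 7 of the 41 tested members (Bmpr2, Acvr1, Eng, Tgfb1, Inhbb, Smad5 and Smad9) and below them for 3 (Inhba, Smad1 and Id4), and 27.2% of all genes were separated in the same way (15% higher and 12.2% lower). With range B as a covariate in edgeR, 3 members were called at 6 days against control, Fst higher and Acvr1 and Tgfbr2 lower, beside 4.62% of all genes (2.04% higher and 2.58% lower). At 14 days against control 8 were called, Bmp2, Bmp3, Acvr2a, Tgfbr3 and Fst higher and Acvr1, Inhbb and Chrd lower, beside 17% of all genes (8.32% higher and 8.72% lower). For 14 against 6 days 8 were called, Bmp3, Bmp4, Tgfbr2, Ltbp1 and Tgfbi higher and Acvr1, Inhbb and Nog lower, beside 10.9% of all genes (5.33% higher and 5.53% lower). The covariate sets range B apart from ranges A and C together. It therefore removes no difference between ranges A and C from either 14-day comparison. At 6 days, 4 of 40 members changed by more than 2-fold in the same direction within range A and within range B, namely Bmp2, Fst, Chrd and Bmpr1b, and 1, Bmp4, did so in opposite directions. None of these within-range differences in Bmp2, Fst, Chrd, Bmpr1b or Bmp4 was tested with more than 1 control library in range B.

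**Figure D5:**
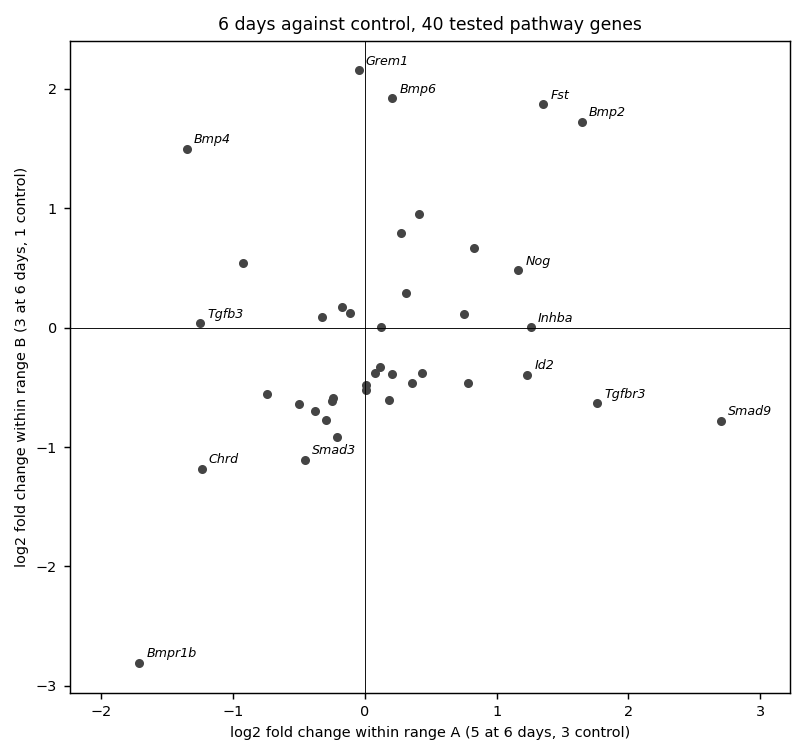
Log2 fold changes of 40 tested members at 6 days against control within range A (horizontal axis) and within range B (vertical axis); Bmp3 is left out because it had no read in the only control library of range B. Bmp2 and Fst lie beyond 1 on both axes, Bmpr1b and Chrd below -1 on both, and most members lie within 1 of 0 on both axes.

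A further list of 84 pathway genes outside the 43 had 64 that passed the filter. At 6 days against control 4 were called higher and 1 lower, beside 1.26% of all genes. At 14 days against control 5 were called higher and 5 lower, beside 6.6% of all genes, and between 14 and 6 days 1 higher and 3 lower, beside 3.89%. Ski, a co-repressor that binds SMADs and the relative of Skil, had 307, 394, 328 and 505 CPM in control replicates 1 to 4, 270, 378 and 483 CPM as lowest, median and highest at 6 days, and 64.9, 74.7 and 95.4 CPM at 14 days. No 14-day library came near the others, and Ski fell with a log2 fold change of -2.29 ± 0.25 against control (adjusted p = 0.000717) and -2.30 ± 0.24 against 6 days (adjusted p = 0.00126, edgeR in both). Both calls held in all 15 models that left out 1 library and in all 9 other settings.

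Pmepa1, a TGF-beta-induced inhibitor of SMAD signalling, had 81.2, 64.7, 74.2 and 133 CPM in control replicates 1 to 4, 13.6, 39.5 and 75.8 CPM as lowest, median and highest at 6 days, and 10.2, 5.8 and 8.57 CPM at 14 days. It was lowest in the 14-day libraries, and its log2 fold change against control was -3.43 ± 0.58 (adjusted p = 0.00468, edgeR), a call that held in all 15 models with 1 library left out. Against 6 days it was -2.25 ± 0.51 (adjusted p = 0.0299, edgeR). Range C held the same 3 libraries.

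At 6 days the latent TGF-beta binding protein Ltbp2 rose with a log2 fold change of 2.18 ± 0.47 (adjusted p = 0.0368), 2.37 within range A and 1.68 within range B, and it was also higher at 14 days against control (2.63 ± 0.53, adjusted p = 0.011). Ccn2, connective tissue growth factor and a target of TGF-beta and of YAP, rose, with log2 fold changes against control of 2.84 ± 0.50 at 6 days (adjusted p = 0.0141) and 2.51 ± 0.54 at 14 days (adjusted p = 0.0147). The BMP antagonist Nbl1 rose at 6 days, with a log2 fold change of 1.43 ± 0.31 (adjusted p = 0.0381), and Itgb6, a subunit of an integrin that activates latent TGF-beta, fell with a log2 fold change of -2.21 ± 0.47 (adjusted p = 0.0368, edgeR in all) (-2.65 in range A alone, -0.10 in range B alone). Gdf10 had no read in any control library and averaged 1.13 CPM at 6 days and 0.318 CPM at 14 days. Its mean level was 72.2 times at 6 days and 20.3 times at 14 days a floor of 3 counts over all control libraries pooled. The means weigh libraries equally and the pooled floor does not, so these are not strict lower bounds on the fold change. The 6-day libraries overlapped the controls, so at least 1 of them had no read either. Gdf10 was called higher at both times against control. With 1 library left out, the 6-day call held in 8 of 15 models and the 14-day call in 9 of 15. Neither call was made with limma-voom, without range B or with the 2 groups alone.

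At 14 days against control the cyclin-dependent kinase inhibitor Cdkn2b fell, with a log2 fold change of -1.97 ± 0.46 (adjusted p = 0.021), as did the follistatin-related secreted protein Fstl1, at -2.32 ± 0.63 (adjusted p = 0.0407), and the secreted BMP modulator Kcp, at -2.83 ± 0.80 (adjusted p = 0.0474). The transcription factors Nfatc1, known to act downstream of BMP in hair follicle stem cells, and Gata3 rose, with log2 fold changes of 1.71 ± 0.41 (adjusted p = 0.0245) for Nfatc1 and 1.02 ± 0.28 (adjusted p = 0.0436) for Gata3. Between 14 and 6 days the BMP modulator Twsg1 rose, with a log2 fold change of 0.86 ± 0.21 (adjusted p = 0.0379), and the co-repressor Tgif1 fell by 0.73 on the log2 scale (adjusted p = 0.043, edgeR in all). Apart from Ski, and Pmepa1 against control, each of the calls named from this list was lost in at least 1 model that left out a library. Of 15 such models, the Tgif1 call held in 2, the Kcp and Gata3 calls in 3, and the Fstl1 and Twsg1 calls in 7. The 6-day calls of Nbl1, Itgb6 and Ltbp2 held in 6. Cdkn2b, Nfatc1 and Pmepa1 against 6 days held in 11, and both Ccn2 calls and Ltbp2 at 14 days in 14.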

How the data were processed

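The authors deposited, per the file headers, a count of uniquely aligned reads for each gene. Beside each count stands the authors' RPKM, which scales it by gene length and a factor for each library. The aligner was GSNAP and the build GRCm38, per the submitters' processing notes. Strand handling is not given in the sources used here, and antisense or overlapping genes may therefore share reads. Of 36528 Entrez identifiers 31049 matched RefSeq genes of GRCm38.p6, and the other 5479 held 1.24 to 1.59% of counts. All 105 pairs of libraries differed by more than sampling noise, with a chi-square of at least 52.82 times its degrees of freedom.

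Counts were tested with the quasi-likelihood F test of edgeR 4.0.16 (R 4.3.3) after TMM scaling and filterByExpr, in 1 model of all 15 libraries without covariates, with 12 residual degrees of freedom and Benjamini-Hochberg adjustment over 18751 genes. CPM values are TMM-scaled and compare 1 gene across libraries, and RPKM values compare genes. Floors cover counting error only. Alternatives were upper-quartile or RLE scaling, limma-voom 3.58.1 with sample weights, DESeq2 1.42.0, other filters, 2 groups only, identifier range B as a covariate, left out or alone, and each library left out. Values by library (at 6 days their lowest, median and highest) are given for members called in any comparison, with or without the range B covariate, and for 22 members fixed by name; of the further list, called genes are named. The members, lists and tests were chosen with earlier results of these data known.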

Additional observations from a re-analysis of the deposited data

Results flagged for a closer look

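In groups of 4 or 8 libraries, 8 of 56 tested groups of a named member held a library far from the others by Dixon's ratio, where chance gives about 1 in 20. Among controls, Bmp2 was highest in replicate 1 (5.01 CPM) and Bmp7 was lowest in replicate 3 (97.7 CPM). Control replicate 4, the only control of range B, stood above the other controls for Tgfb1 (128 CPM), Inhbb (501 CPM) and Skil (207 CPM). At 6 days, replicate 8 was highest for Id4 (471 CPM) and Ltbp1 (244 CPM), and replicate 2 was highest for Tgfbi (354 CPM).

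For 5 members the change after 14 days of vismodegib differed from that after 6 days in edgeR's test of 14 against 6 days, which is also the difference between the 2 contrasts with control. The log2 difference was 6.72 for Bmp3, 4.06 for Bmp4, -1.84 for Nog, 1.11 for Ltbp1 and 0.87 for Tgfbi.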

How the results depend on the processing

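No paired analysis was possible because the labels carry no replicate numbers. Over 28 named members and 14 further genes in 3 comparisons and all settings, 2849 of 3108 values kept their side of the threshold, 181 were no longer called and 78 became called. The sign changed in 94 values that were called neither before nor after, and in 0 that were called. Members called numbered 0 at 6 days against control, 2 at 14 days against control and 5 for 14 against 6 days, in that order below. DESeq2 called 0, 11 and 11, limma-voom 2, 9 and 13, the range B covariate 3, 8 and 8, leaving out range B 1, 4 and 6, the 2 groups alone 0, 0 and 6, and an adjusted p under 0.1 gave 0, 7 and 8. Range A alone called 1 at 6 days, Fst, beside 468 of 17360 genes. No count is given for range B alone, which holds 1 control library. With 1 library left out the counts ran from 0 to 0, 0 to 3 and 0 to 7. Without 14-day replicate 1 or 3 no member was called in either 14-day comparison, and without 14-day replicate 2 none was called against control. For 14 against 6 days, 1 was called without 6-day replicate 5, beside 277 genes, and 2 without 6-day replicate 2, beside 363. Without 6-day replicate 1, 3, 4, 6 or 7 or control replicate 3, 3 were called, beside 411 to 511 genes. Against control at 14 days 1 was called without control replicate 2, beside 797 genes.

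The members' median log2 fold change was -0.38 at 6 days within range B and 0.13 at 14 days against control with limma-voom, each moved by at least 0.23, the SD between libraries; with 1 library left out it ran from -0.11 to 0.08, -0.15 to -0.002 and -0.28 to 0.001. All genes called were 236, 1238 and 730. DESeq2 gave 846, 2752 and 2609, limma-voom 826, 4205 and 4693, the range B covariate 866, 3196 and 2036, and leaving out range B 465, 2330 and 1322. Range A alone gave 468 at 6 days, the 2 groups alone 374 at 14 days against control, and no low-count filter 460 for 14 against 6 days. With 1 library left out the counts ran from 69 to 308, 376 to 1438 and 3 to 1138; the 69 is without control replicate 2, and the 376 and 3 are without 14-day replicate 1. The causes were not tested. Precision is limited by 3 libraries at 14 days and 1 control library in range B.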
